A study of Mus musculus with 6 samples.

Results

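Netrin 1, netrin 4, their receptors of the UNC5 and DCC families and the death-associated kinase DAPK1 were followed in the transcriptome of JAG1-overexpressing mouse astrocytes. The group held 9 of the 23282 gene rows of the deposited count tables (Ntn1, Ntn4, Unc5a, Unc5b, Unc5c, Unc5d, Dcc, Neo1 and Dapk1), matched by gene symbol. These genes were chosen by their known roles and with the JAG1-against-control values of the same libraries in view. Their differences are therefore given as descriptions with errors, without p-values. Counts of these genes past a threshold of adjusted p are descriptions too and are not a test of them.

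All 6 libraries came from a line of murine astrocytes labelled Ink4a -/-, and named Ink4a/Arf-/- by the study, which lacks these tumour suppressors and was grown in serum-containing DMEM. The control group (3 libraries) had received the empty vector pcDNA3.1-puro, and the JAG1 group (3 libraries) the vector pcDNA3.1-JAG1-puro, which carries the Notch ligand JAG1. The labels give the genotype as WT for the control and as JAG1 overexpression for the other group, the tissue as brain and the cell type as astrocyte for all, and no age or sex of animals. Whether the transfected cells were pools or clones, and whether replicates were separate cultures, is not given in the sources used here, so errors measure only the spread between libraries, which may be technical.

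Netrins are secreted proteins related to laminins that steer axons and migrating cells. DCC and its relative neogenin (Neo1) mediate mainly attraction, UNC5 receptors mediate repulsion, and the same receptors are called dependence receptors because they can promote cell death when netrin is absent and signal survival when it is bound. DAPK1, a kinase regulated by calmodulin, is a death effector downstream of UNC5B, and in the brain netrins are made by several cell types, including glia.

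The libraries were made with the QuantSeq 3' method, which gives about 1 read per transcript end, so that counts scaled to library size (CPM) do not rise with transcript length. Levels set side by side between genes, and genes with few or no reads, also depend on how well each transcript end was captured and assigned. That was not checked here. The tables summed to 18889751 to 20489062 reads per control library and to 14341634 to 20071276 per JAG1 library, and the level that 3 reads stand for was 0.148 to 0.206 normalized CPM. Jag1 itself measured 8.99, 10.8 and 11.2 CPM in the control libraries and 15.2, 13.6 and 13.8 CPM in the JAG1 libraries. Its log2 fold change was 0.46 (SE 0.11, edgeR quasi-likelihood test, Benjamini-Hochberg adjusted p = 0.00446). Whether transcripts of the vector were counted on the Jag1 row is not known. Of 10 astrocyte markers, 6 exceeded 3 reads in at least 1 library, whereas the defining markers Gfap and Aqp4 were at 0 in all 6. The summed astrocyte markers, mostly Sox9 and Gja1, were at 337 to 398 CPM in control and 123 to 137 CPM in JAG1 libraries.

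Of the 9 genes, 4 had enough reads to enter the comparison of all genes (Unc5b, Unc5c, Neo1 and Ntn1), Unc5c only through its control libraries. Of these, 1 was higher and 3 were lower in JAG1 libraries at an adjusted p under 0.05, with no overlap between the groups for any of the 4. With a change of at least 2-fold required as well, 0 were higher and 2 lower, where 5.46% and 8.49% of all genes were. Differences were widespread, and 55.1% of the 11712 genes tested passed the same threshold, 27.4% higher and 27.7% lower, and 62.0% did not overlap between the groups. The levels of the netrins and receptors in every library are plotted with those of Jag1.

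**Figure D1:**
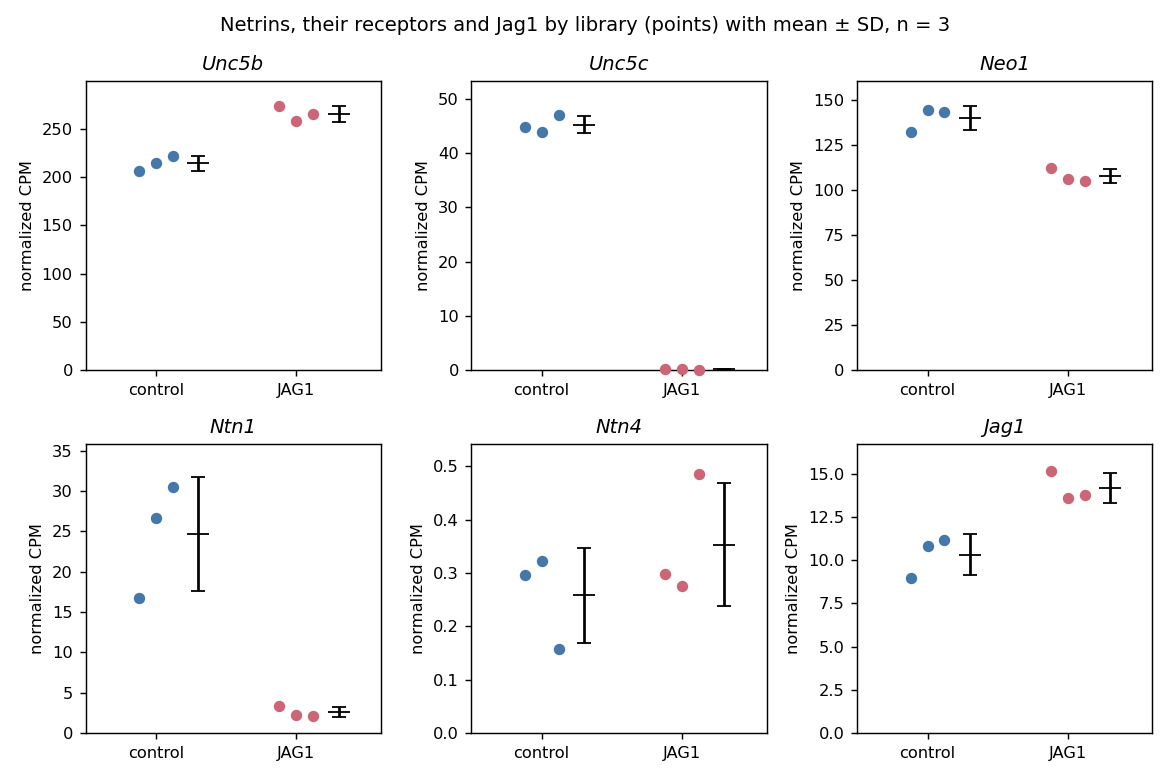
Normalized CPM (linear y axes from 0) of Unc5b, Unc5c, Neo1, Ntn1, Ntn4 and Jag1 in the 3 control (blue) and 3 JAG1 (red) libraries, with the mean and SD of each group as black bars. Unc5c lay between 43.9 and 47.0 CPM in control and at or below 0.275 CPM in JAG1 libraries, whereas Unc5b lay higher in every JAG1 library and Ntn4 stayed under 0.5 CPM throughout.

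Netrin 1, the main ligand of these receptors, was lower in the JAG1-overexpressing cells. Ntn1 (chr11:68209364-68386826, GRCm38) gave 341, 497 and 583 reads in the control libraries, or 16.8, 26.7 and 30.5 normalized CPM. In the JAG1 libraries it gave 66, 33 and 35 reads, or 3.29, 2.27 and 2.13 CPM. The lowest control library lay far above the highest JAG1 library, and the groups did not overlap. The mean was 24.7 ± 7.05 CPM in control and 2.56 ± 0.634 CPM in JAG1 libraries (SD, n = 3 each), a log2 fold change of -3.24 (SE 0.24, 95% CI -3.77 to -2.70), or 9.43-fold lower. Ntn1 varied more within groups than Unc5b and Neo1, with a coefficient of variation of 28.7% in control and 24.7% in JAG1 libraries, against 3.02% to 4.77% for Unc5b, Neo1 and the control libraries of Unc5c. The JAG1 libraries of Unc5c, with 0 to 4 reads each, are left out of this comparison. Control replicate 1, at 16.8 CPM, was the low control library.

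Netrin 4, a basement membrane netrin that binds laminin, was near the detection limit in both groups. Ntn4 (chr10:93641049-93745972) gave 6, 6 and 3 reads in control and 6, 4 and 8 reads in JAG1 libraries. The groups overlapped at 0.157 to 0.322 CPM and 0.275 to 0.486 CPM. The ratio of summed reads, scaled for library size, was 1.36 (95% counting interval 0.649 to 2.9) and no difference was detectable at this depth.

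Unc5c, a repulsive netrin receptor, was nearly lost from the JAG1-overexpressing cells. The gene (chr3:141465564-141834924) gave 908, 818 and 898 reads in control and 3, 4 and 0 reads in JAG1 libraries. In normalized CPM these were 44.8, 43.9 and 47.0 against 0.150, 0.275 and 0. The control libraries agreed closely and the JAG1 libraries sat at or near the limit of detection. Mean levels were 45.2 ± 1.57 and 0.142 ± 0.138 CPM (SD, n = 3 each). The fitted log2 fold change was -8.29 (SE 0.23, 95% CI -8.81 to -7.79), and the summed reads, 2624 against 7, gave a ratio of 330 with a 95% counting interval of 160 to 822. With so few reads in the JAG1 group, the size of the fold rested on single libraries: the log2 value was -8.99 without JAG1 replicate 2 and -7.75 without JAG1 replicate 3. Unc5c had the 20th lowest fold change of the 11712 genes tested, and Ntn1 the 239th lowest.

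Unc5b, the UNC5 receptor known from blood vessels and from netrin 1 survival signalling, moved the other way and by far less. The gene (chr10:60762594-60831581) gave 4171, 4007 and 4236 reads in control and 5506, 3747 and 4359 reads in JAG1 libraries. Scaled to library size these were 206, 215 and 222 CPM against 274, 258 and 265 CPM. Every JAG1 library lay above every control library, although JAG1 replicate 2, the shallowest library, had the fewest raw reads. The means were 214 ± 7.85 and 266 ± 8.34 CPM (SD, n = 3 each), a log2 fold change of 0.31 (SE 0.05, 95% CI 0.20 to 0.42), or 1.24-fold. Endothelial markers were near 0 in the same libraries: Tek and Emcn had no read, and the 6 markers summed to at most 0.322 CPM in any library.

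The remaining UNC5 receptors were not detectable at this depth. Unc5a (chr13:54945151-55006018) gave 1 read, in JAG1 replicate 2, and Unc5d (chr8:28646717-29219671) gave none in any library. A count of 0 allows a level of up to 0.146 to 0.209 CPM per library. Intervals and limits of this kind cover counting error only.

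The promoters of Unc5c and Unc5b are shown because these receptors moved in opposite directions within a family. Each is 300 bases in the RefSeq annotation of GRCm38.p6, from 250 before to 50 after the annotated start, read 5' to 3' on the strand of the gene, with CG dinucleotides in capitals. Unc5c lies at chr3:141465314-141465613 on the plus strand and Unc5b at chr10:60831532-60831831 on the minus strand.
Unc5c: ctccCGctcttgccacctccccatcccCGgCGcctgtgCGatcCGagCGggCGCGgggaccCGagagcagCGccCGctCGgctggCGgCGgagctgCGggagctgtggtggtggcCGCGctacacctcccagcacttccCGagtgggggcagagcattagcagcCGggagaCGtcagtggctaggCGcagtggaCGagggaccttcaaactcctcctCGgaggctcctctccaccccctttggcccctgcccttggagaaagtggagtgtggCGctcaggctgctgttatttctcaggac
Unc5b: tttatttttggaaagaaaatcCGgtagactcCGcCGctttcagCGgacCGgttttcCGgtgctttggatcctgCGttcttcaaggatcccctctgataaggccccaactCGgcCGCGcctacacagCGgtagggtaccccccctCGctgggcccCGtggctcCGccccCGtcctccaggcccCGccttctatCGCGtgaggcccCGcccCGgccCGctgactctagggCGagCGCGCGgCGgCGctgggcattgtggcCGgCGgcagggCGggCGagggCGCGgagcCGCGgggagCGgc
Both are rich in CG. The Unc5c promoter held 24 CG dinucleotides and the Unc5b promoter 36, whereas the median of 32851 mouse promoters was 7, and 20.0% and 6.23% of them held as many. The Neo1 promoter held 54, a number reached by 0.347% of promoters. The core of the SMAD3 binding element (GTCTG, either strand) and the core of the RBPJ site (TGGGAA, either strand) were searched because SMAD3 and the Notch pathway belong to the setting of the study. Neither was found in the windows of Unc5c, Unc5b, Neo1, Unc5a or Dapk1, while the Ntn4 window held 2 matches to the first and 1 to the second. All promoters together held them in 49.6% and 25.6% of cases. The SMAD3 site that the study reported in the TWIST1 promoter lies farther upstream than these windows reach, and its motif (TWGTCTGV) is longer than the core. Sites outside the windows were not searched, so the absence of a match covers the windows only. The table of promoters had entries for 6 of the 9 genes, and none for Ntn1.

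The UNC5 transcripts of JAG1 libraries came almost wholly from a single receptor. Unc5c made up 17.4% ± 0.464 (SD, n = 3) of UNC5 reads in control and 0.0537% ± 0.0533 (SD, n = 3) in JAG1 libraries. Unc5b made up the rest, 82.6% ± 0.464 and 99.9% ± 0.067. The share in JAG1 libraries was 0.0272% without JAG1 replicate 2 and 0.0805% without JAG1 replicate 3. In JAG1 replicate 3, with no Unc5c read, the Wilson 95% interval of the share reached up to 0.088%. The sum of all 4 UNC5 genes was nearly level, with 251, 259 and 269 CPM in control and 275, 258 and 265 CPM in JAG1 libraries. The groups overlapped in this sum, and its mean was 259 ± 8.89 in control and 266 ± 8.26 CPM in JAG1 libraries (SD, n = 3 each).

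**Figure D2:**
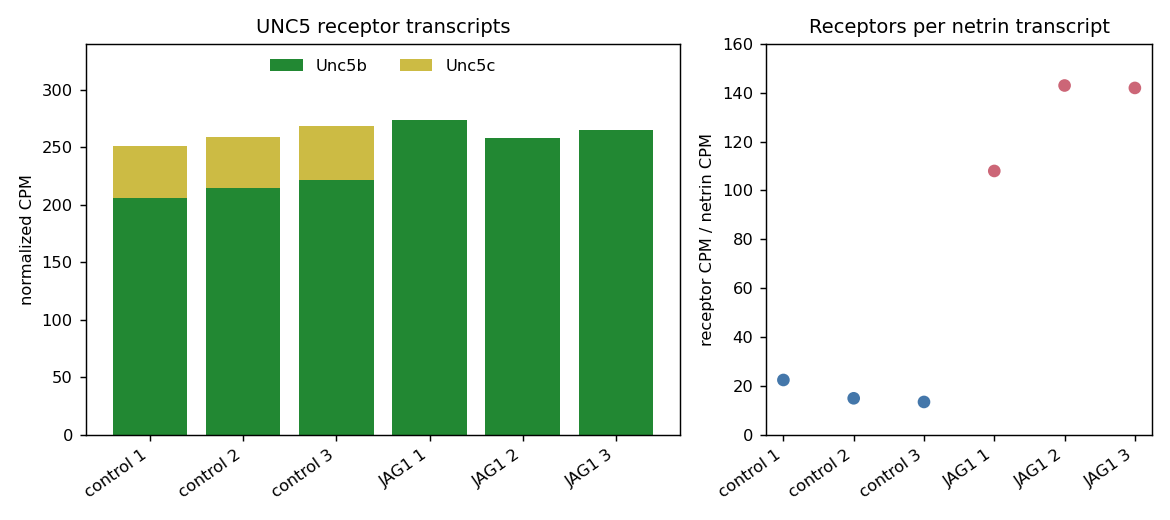
Left, normalized CPM of Unc5b (green) and Unc5c (yellow) stacked for each library. Right, the summed CPM of Unc5a to Unc5d, Dcc and Neo1 divided by that of Ntn1 and Ntn4 for each library, blue for control and red for JAG1. The height of the bars is similar in all 6 libraries, the yellow part is visible only in control, and the ratio lies at 13.4 to 22.4 in control and 108 to 143 in JAG1 libraries.

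Dcc (chr18:71253613-72351228), an early example of a dependence receptor, gave a single read, in JAG1 replicate 1. Its relative Neo1 (neogenin, chr9:58874679-59036614), which binds netrins and repulsive guidance molecules, was the second most abundant of the 9 genes in both groups. Neo1 gave 2683, 2683 and 2740 reads in control and 2241, 1542 and 1730 reads in JAG1 libraries, or 132, 144 and 143 CPM against 112, 106 and 105 CPM. All JAG1 libraries lay below all control libraries. The means were 140 ± 6.48 and 108 ± 3.56 CPM (SD, n = 3 each), a log2 fold change of -0.38 (SE 0.06, 95% CI -0.50 to -0.25), or 1.3-fold lower. The ratio of Unc5b to Neo1 went from 1.53 ± 0.0331 in control to 2.47 ± 0.046 in JAG1 libraries (SD, n = 3 each).

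Dapk1 (chr13:60601723-60763191), the kinase that carries the death signal of UNC5B, was at or under 3 reads in every library. It gave 0, 0 and 3 reads in control and 1, 1 and 0 in JAG1 libraries. No difference was detectable at this depth.

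Ligand and receptor transcripts stood in a different proportion in the groups. Ntn1 and Ntn4 together measured 24.9 ± 6.99 CPM in control and 2.92 ± 0.584 CPM in JAG1 libraries, and the 6 receptors together 399 ± 14.7 and 373 ± 11.5 CPM (SD, n = 3 each). Receptor over netrin CPM was 22.4, 14.9 and 13.4 in control and 108, 143 and 142 in JAG1 libraries, with means of 16.9 ± 4.79 and 131 ± 20.0 (SD, n = 3 each). The groups did not overlap in this ratio. They did overlap in the receptor sum, at 383, 403 and 412 CPM in control and 386, 364 and 370 CPM in JAG1 libraries. The ratio thus mainly followed the netrin sum, whose mean in JAG1 over control was 0.117, against 0.935 for the receptors. These sums and ratios were chosen after the values were seen and have no test. They leave out Ntn3, a netrin not among the chosen genes, at a mean of 0.531 CPM in control and 0.312 CPM in JAG1 libraries.

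The order of levels changed with the group. In control libraries it ran Unc5b, Neo1, Unc5c, Ntn1 and Ntn4, and no neighbours in it overlapped. In JAG1 libraries it ran Unc5b, Neo1, Ntn1, Ntn4 and Unc5c, where Ntn4 and Unc5c, both near the limit of detection, were not separated beyond their spread. By the mean over all 6 libraries, both groups pooled, 6.51% of tested genes had a higher level than Unc5b, 14.0% than Neo1, 49.6% than Unc5c and 60.9% than Ntn1.

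**Figure D3:**
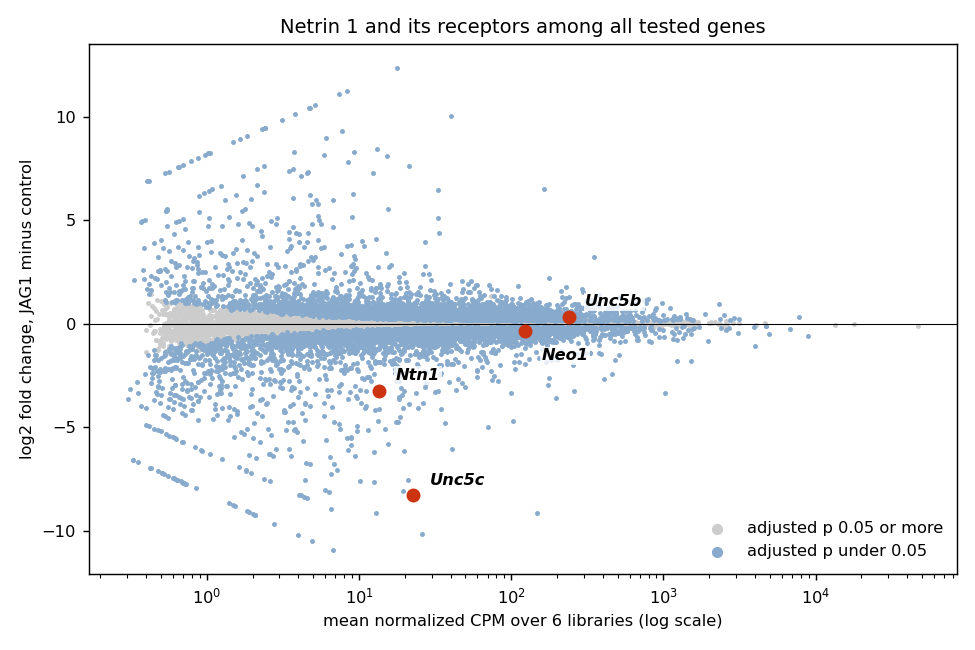
Log2 fold change (JAG1 minus control, y axis) against mean normalized CPM over the 6 libraries (x axis, log scale) for 11712 genes, blue where the adjusted p was under 0.05 and grey otherwise, with Unc5b, Neo1, Ntn1 and Unc5c in red. Unc5c at -8.29 sits near the lower edge and Ntn1 at -3.24 below most genes, while Unc5b at 0.31 and Neo1 at -0.38 lie inside the main cloud.

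The markers of several cell types moved between the same groups. The 6 markers of mural cells or fibroblasts, of which 4 exceeded 3 reads and Cspg4 and Lum were at 0 in all libraries, summed to 625 to 633 CPM in control and 211 to 243 CPM in JAG1 libraries, led by Acta2. Of the 6 neuronal markers, 3 exceeded 3 reads, led by Tubb3 and Map2, with Snap25 and Syt1 at 0 throughout, and their sum was 100 to 110 CPM in control and 58.6 to 61.7 CPM in JAG1 libraries. The leading pair went in opposite directions, Tubb3 from 78.2 to 8.40 CPM and Map2 from 25.1 to 51.3 CPM. Oligodendrocyte lineage markers (2 of 8 over 3 reads, led by Pdgfra, 4 at 0 throughout) summed to 3.45 to 4.56 and 4.13 to 4.80 CPM, and microglial markers (3 of 6, led by Cx3cr1, none at 0 throughout) to 0.938 to 1.52 and 1.59 to 2.34 CPM. The part of these markers, and of the astrocyte markers, in the differences of Unc5c, Ntn1 and Neo1 was not tested. Fewer cells of a type and less RNA per cell cannot be told apart in such bulk libraries.

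The genes whose levels over the 6 libraries ran closest to Unc5c, 5 in all, included Slc28a2b, Eif4e3, Pard6g and Elavl2. Likeness was the Euclidean distance between log2 CPM centred on each gene's mean, computed over the 11000 genes that averaged 1 CPM or more, and these distances were 0.83 to 1.62. Slc28a2b has a close copy in Slc28a2, so its count is uncertain. All 5 were between 13.4 and 41.7 CPM in control and at or under 0.222 CPM in JAG1 libraries, so that single reads set the exact distances. Like Unc5c, they entered the comparison only through their control libraries. Their fall to near the limit of detection follows from being chosen by likeness to Unc5c and is not a separate result. The genes closest to Unc5b were Ptcd3, Cul1, Rrp8, Cul3 and Abhd13, at distances of 0.0407 to 0.0674. Their log2 fold changes were 0.27 to 0.36. The 5 genes closest to Unc5c lie on 5 chromosomes, none of them that of Unc5c.

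The genes around Unc5c and Ntn1 lay on both sides of 0. Within 1 Mb of Unc5c, 5 other genes were tested, 2 of them higher and 1 lower. Their median log2 fold change was 0.06. Bmpr1b, 2211 bases away, had no read. Pdlim5, the nearest tested gene, lies 404661 bases away and had a log2 fold change of -0.11 (SE 0.07, edgeR adjusted p = 0.159). The gene that was lower, Gbp2, fell by 3.84 on the log2 scale, from a mean of 0.93 CPM in control to 0.0598 CPM in JAG1 libraries. Within 1 Mb of Ntn1, 21 other genes were tested, 8 of them higher and 2 lower, and the median was 0.22. Stx8, 2216 bases away, had a log2 fold change of 0.05 (SE 0.15, edgeR adjusted p = 0.802). The lower genes were Gas7, at -4.28, and Myh10, at -0.78 on the log2 scale. Gas7 went from a mean of 6.21 CPM in control to 0.317 CPM in JAG1 libraries. Like Gbp2 it was near the limit of detection there, so the size of both folds rests on few reads. Both genes entered the test only through their control libraries, so entry set their direction in the counts of lower genes. Of all tested genes, 27.4% were higher and 27.7% lower. Over all tested genes the median was 0.00, and over chromosomes 3 and 11 it was 0.05 and 0.00. These neighbours and the named genes among them were chosen after their values were seen.

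**Figure D4:**
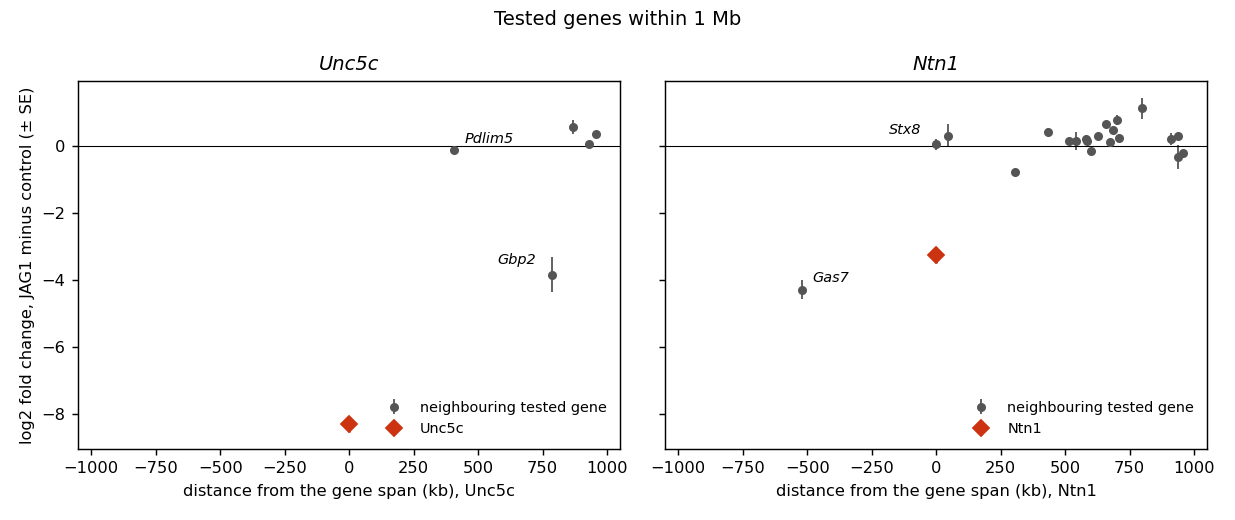
Log2 fold change (JAG1 minus control, with SE) of the tested genes within 1 Mb of Unc5c (left) and Ntn1 (right) against their distance from the gene in kb, with Unc5c and Ntn1 as red diamonds at 0. Most neighbours lie near 0, Gbp2 at -3.84 and Gas7 at -4.28 stand apart, and Pdlim5 and Stx8 sit close to 0. Gbp2 and Gas7 were near the limit of detection in JAG1 libraries and entered the test only through their control libraries.

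The wider netrin pathway moved in both directions. Lists of 81 other genes by role held 54 tested genes, of which 16 rose, 22 fell and 16 did not pass the threshold (edgeR quasi-likelihood test, adjusted p under 0.05), with a median log2 fold change of -0.13 against 0.00 over all genes. Shares of 29.6% higher and 40.7% lower stand beside 27.4% and 27.7% over all genes. The lists were written with earlier results of these data known. The genes named from them below were picked by call and size of change. Adjusted p-values of these named genes come from the fit of all genes and describe them, and are not a test of genes so picked. The counts and medians of the lists include Flrt3 and Elmo1, which rose, and Adora2b, which fell. Each of these 3 genes entered the test only through the group where it was higher, so entry set its direction. Of the 4 other netrins (Ntn3, Ntn5, Ntng1 and Ntng2), none had enough reads to be tested.

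Among other receptors of netrins and other ligands of their receptors, 11 of 19 genes were tested, 4 rose and 5 fell, with a median of -0.48. The number that fell was 3 without JAG1 replicate 1 and 3 with limma-voom. Flrt3, an adhesion protein that binds UNC5 receptors, rose from 0.224 ± 0.0798 to 2.30 ± 0.532 CPM (SD, n = 3 each). With 4, 3 and 6 control reads it entered the test only through its JAG1 libraries (40, 29 and 48 reads), and its log2 fold change of 3.32 (SE 0.37) is given without a p. Boc, a surface protein of the same immunoglobulin group as its partner Cdon, rose by 2.78 (SE 0.20, edgeR adjusted p = 4.47e-07) and Cdon by 0.56 (SE 0.13, edgeR adjusted p = 0.00438). Rgma, the repulsive guidance molecule that binds neogenin, fell from 57.9 ± 4.57 to 11.0 ± 0.524 CPM (SD, n = 3 each), a change of -2.39 (SE 0.09, edgeR adjusted p = 2.5e-09). Its 3 control libraries gave 1147, 1008 and 1204 reads and its 3 JAG1 libraries 212, 159 and 191. Itga6, an integrin subunit that binds laminin and netrins, fell from 221 ± 26.0 to 96.0 ± 5.72 CPM (SD, n = 3 each). Mcam, an adhesion protein also described as a netrin receptor, had a log2 value of -1.69 (edgeR adjusted p = 0.0142), but its groups overlapped, its value was -0.86 without control replicate 3, and the call was lost without JAG1 replicate 1 (adjusted p = 0.0626) and with limma-voom (adjusted p = 0.0920).

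Of the cytoplasmic adaptors and effectors that link netrin receptors to actin, 25 of 31 were tested, 7 rose and 12 fell, with a median of -0.16. Tiam1, an exchange factor that activates Rac1, fell from 29.2 ± 2.08 to 6.74 ± 0.581 CPM (SD, n = 3 each), a change of -2.11 (SE 0.10). Fyn, the kinase that phosphorylates DCC, fell by 1.39 (SE 0.15) and Nck2, an adaptor that joins receptors to actin regulators, fell by 1.28 (SE 0.13). Vasp, which promotes actin filament growth, rose from 194 ± 3.10 to 300 ± 18.4 CPM (SD, n = 3 each), a change of 0.63 (SE 0.06). Ezr, which links membrane proteins to actin, rose by 0.37 (SE 0.08). Wasl, an activator of actin branching, had a value of 0.40 (SE 0.12, edgeR adjusted p = 0.0117), which was past the threshold except without control replicate 2 (adjusted p = 0.0530).

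In the list of the death arm, turnover and shedding of dependence receptors, 12 of 13 genes were tested, 4 rose and 3 fell, and none changed by 2-fold or more. Siah2, of a family of ubiquitin ligases that turn over DCC, rose from 28.6 ± 2.44 to 41.8 ± 5.52 CPM (SD, n = 3 each), a log2 fold change of 0.55 (SE 0.10, edgeR adjusted p = 0.000854). Ppp2ca, the catalytic subunit of the phosphatase PP2A, rose by 0.39 (SE 0.06). Ppp2r1b, a scaffold subunit of the same phosphatase, fell by 0.36 (SE 0.07), and Maged1, an adaptor of UNC5A in cell death, fell by 0.27 (SE 0.07).

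Of 14 dependence receptors outside the netrin system, 6 were tested, 1 rose and 2 fell. Epha4, an ephrin receptor that guides axons, fell from 18.0 ± 1.38 to 2.85 ± 0.957 CPM (SD, n = 3 each), a change of -2.62 (SE 0.18, edgeR adjusted p = 3.24e-07). Insr, the insulin receptor, rose by 0.36 (SE 0.10) and Igf1r, the receptor of insulin-like growth factor 1, fell by 0.32 (SE 0.08).

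**Figure D5:**
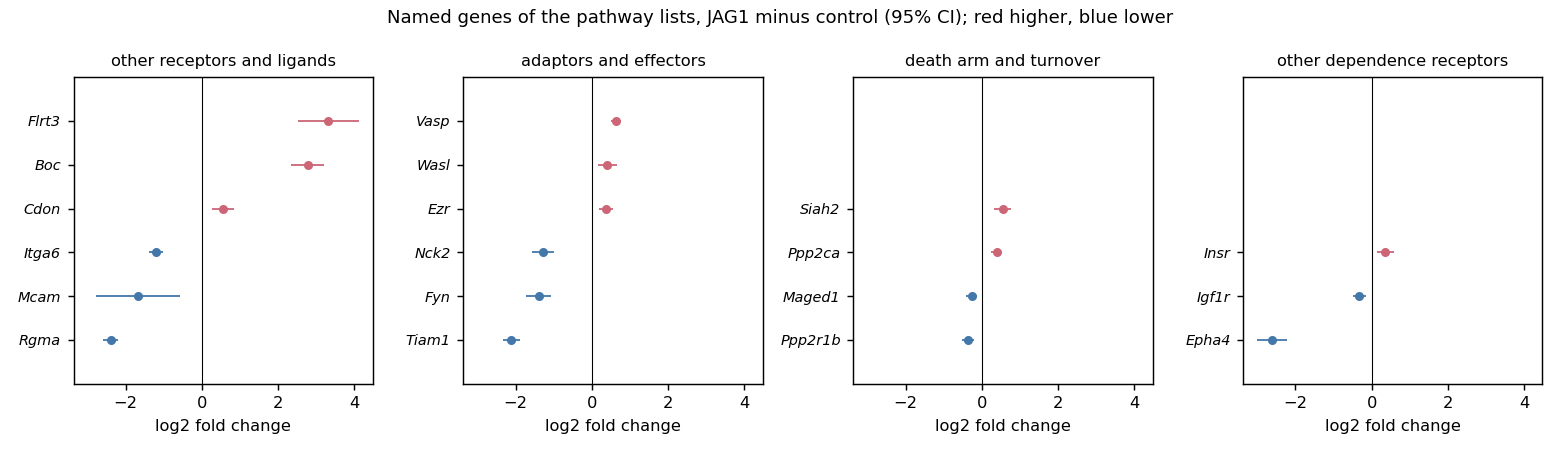
Log2 fold change (JAG1 minus control) with 95% CI for the genes of 4 role lists that the text names, red where higher and blue where lower at an adjusted p under 0.05. The rule that names genes takes both called risers and called fallers of a list, so genes on both sides of 0 follow from the rule. Rgma at -2.39, Epha4 at -2.62, Boc at 2.78 and Flrt3 at 3.32 lie farthest from 0. Flrt3 entered the test only through its JAG1 libraries, so entry set its direction.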

How the data were processed

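Total RNA of 6 libraries (3 control, 3 JAG1) was prepared with the QuantSeq 3' mRNA kit. The authors deposited, for each library, raw read counts and the log2 of normalized read counts for 23282 gene rows. The submitters' processing notes name Bowtie2, bedtools, edgeR and GRCm38 (mm10). Their versions and settings, the annotation and the normalization are not given in the sources used here. Results rest on the deposited counts, and the deposited log2 values served an alternative only.

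Symbols were matched to RefSeq GRCm38.p6 (22059 by symbol, 1071 by synonym, 152 not matched), which gave the coordinates, and 37 symbols occur on more than 1 row. In R 4.3.3 with edgeR 4.0.16, filterByExpr (minimum count 10) kept 11712 genes, TMM factors were applied, and the groups were compared over all 6 libraries by the quasi-likelihood test with Benjamini-Hochberg adjustment (threshold 0.05). Standard errors came from the same fit. Totals ranged from 14341634 to 20489062 counts. On simulated counts for this comparison (11570 genes) 66.7% of genes changed by 0.5 and 84.5% of those changed by 1 (log2) were recovered, and 7.5% of calls were false. The simulation changed only 99 genes by 0.5 and 97 by 1, whereas 55.1% of genes were called in the real libraries. Its rates may therefore not hold for the real calls. No 2 replicates of a group agreed within sampling noise (chi-square per degree of freedom at least 3.8).

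The genes, pathway lists and marker lists were chosen with earlier results of these data known. Besides the 9 genes and Jag1, the text names for each pathway list, among called genes averaging 1 CPM or more, the 3 that rose most and the 3 that fell most, the 5 genes most like Unc5c and Unc5b, and the highest markers of each list. Some genes that this rule names are not reported here. Shares of UNC5 reads have Wilson intervals, and ratios of summed reads exact 95% counting intervals. Alternatives were DESeq2 1.42.0, limma-voom (limma 3.58.1), other normalizations and filters, a fold limit, a replicate block and leaving out each library.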

Additional observations from a re-analysis of the deposited data

How the results depend on the processing

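The same 4 genes (Unc5b, Unc5c, Neo1 and Ntn1) passed the threshold in the same direction under all 14 alternatives without a fold limit. Their log2 fold changes ranged from 0.28 to 0.33, -8.99 to -7.75, -0.42 to -0.36 and -3.48 to -3.06. These fits reuse the same libraries and describe genes chosen with the contrast in view, so they are not a test of them. In the main fit 55.1% of all tested genes passed the threshold, and Unc5c entered it only through its control libraries. With at least a 2-fold change required as well, 639 genes were higher and 994 lower in place of 3211 and 3247, the 4 genes gave 0 higher and 2 lower, and the pathway lists 3 higher and 9 lower in place of 16 and 22. The replicate numbers were not taken as pairs, because the deviations of same-numbered libraries correlated at 0.148, 0.0614 and 0.119, although each library correlated best with its own number. The replicate block gave 3380 higher and 3331 lower genes, and the log2 value of Ntn1 was -3.19. Depth limits Unc5a, Unc5d, Dcc, Dapk1 and Ntn4 and the size of the Unc5c fold.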
